A study of Homo sapiens with 8 samples.

Results

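The nuclear genes of complexes III, IV and V of the mitochondrial oxidative phosphorylation system were followed in N/TERT cells given O/A, a mixture of oligomycin and antimycin A. Members were chosen by gene symbol, as every gene whose symbol starts with UQCR, UQCC, ATP5, ATPAF or COX and a digit, together with CYC1, CYCS, SURF1, SCO1 and SCO2. After 112 pseudogene and hyphenated symbols were dropped, 64 of the 61806 genes in the table were members, and 58 of these had at least 10 counts in at least 4 libraries and could be tested. By complex, 13 of 13 members of complex III, 24 of 29 of complex IV, 20 of 21 of complex V and cytochrome c (CYCS) were tested. N/TERT (N/TERT-1) is an immortalized line of human epidermal keratinocytes, wild type in genotype, and mRNA was sequenced in 4 libraries of cells given ethanol, the solvent, and in 4 of cells given O/A for 4 hours. All cells were grown in the same serum-free keratinocyte medium, and all libraries come from this 1 line.

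Complex III takes electrons from ubiquinol and hands them to cytochrome c, complex IV passes them from cytochrome c to oxygen, and complex V, the ATP synthase, uses the proton gradient that results to make ATP. Antimycin A blocks complex III at the ubiquinone reduction site, and oligomycin blocks the proton path of complex V at its ring of c subunits, whereas neither drug is aimed at complex IV. Most subunits of these complexes are encoded in the nucleus and imported, a few core subunits are made inside the mitochondrion, and a further set of nuclear genes encodes assembly factors that insert haem, copper and iron-sulphur centres or hold unfinished parts together.

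Total counts per library ranged from 17210404 to 20999927 in ethanol and from 17689760 to 19263046 in O/A. The chi-square of library pairs, divided by its degrees of freedom, was 1.78 to 5.95 within a condition and 54.9 to 66.4 across conditions, so each library was counted as a separate sample. The keratinocyte markers KRT5, KRT14, TP63, ITGA6, DSG3 and DSP had an FPKM of at least 1 in 6 of 6 cases, with summed values of 2768 to 3008 in ethanol and 2422 to 2573 in O/A. These sums rest mostly on KRT5 and KRT14, and the markers did not move as 1, since the log2 fold change of O/A over ethanol was -0.30 for KRT5 and 0.99 for DSG3. The 5 fibroblast markers summed to 2.40 to 2.95 and 2.42 to 2.63 FPKM, of which only COL1A1 was at 1 or above, the 4 melanocyte markers to 0.33 to 0.64 and 0.27 to 0.66, with 2 at 0 counts in every library, and the 3 leukocyte markers to 0.40 to 0.59 and 0.65 to 0.88. In such bulk samples, fewer cells that express a gene and less RNA per cell cannot be told apart.

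Most of the 58 members stood close to their ethanol level after O/A. Their share of all counts was 0.486 to 0.509% with ethanol and 0.493 to 0.509% with O/A, so the summed output of the group overlapped between conditions. Upregulated or downregulated (called) here means an adjusted p of 0.05 or less in edgeR's quasi-likelihood test together with a log2(FC) beyond -0.25 or 0.25, where the log2(FC) is the log2 fold change of O/A over ethanol. By this rule 7 members (12.1%) were called, against 34.7% of the 14893 genes tested. Upregulated were COX19, COX7A2L, COX10 and UQCRHL, 4 members where the share over all genes was 15.8%, and downregulated were SCO2, SCO1 and UQCC3, 3 members where it was 18.9%. The count by complex was 2 of 13 for complex III, 5 of 24 for complex IV and 0 of 20 for complex V.

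The median absolute log2(FC) was 0.08 over the 58 members and 0.20 over all genes tested, and the median signed log2(FC) was 0.03 over the members. The 95% interval of the log2(FC) lay wholly between -0.25 and 0.25 for 47 of 58 members, a share that was 29.4% over all genes, and this held for 11 of 13 members of complex III, 15 of 24 of complex IV and 20 of 20 of complex V. Depth bears on this comparison, since the members had a median mean count of 1085 per library and all genes tested one of 399, and deeper genes have narrower intervals. With the fold change left aside, 22 members had an adjusted p of 0.05 or less (14 with a positive and 8 with a negative log2(FC)), against 53.7% of all genes. In 14 members the 4 O/A libraries all lay on one side of the 4 ethanol libraries, against 47.6% of all genes.

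**Figure D1:**
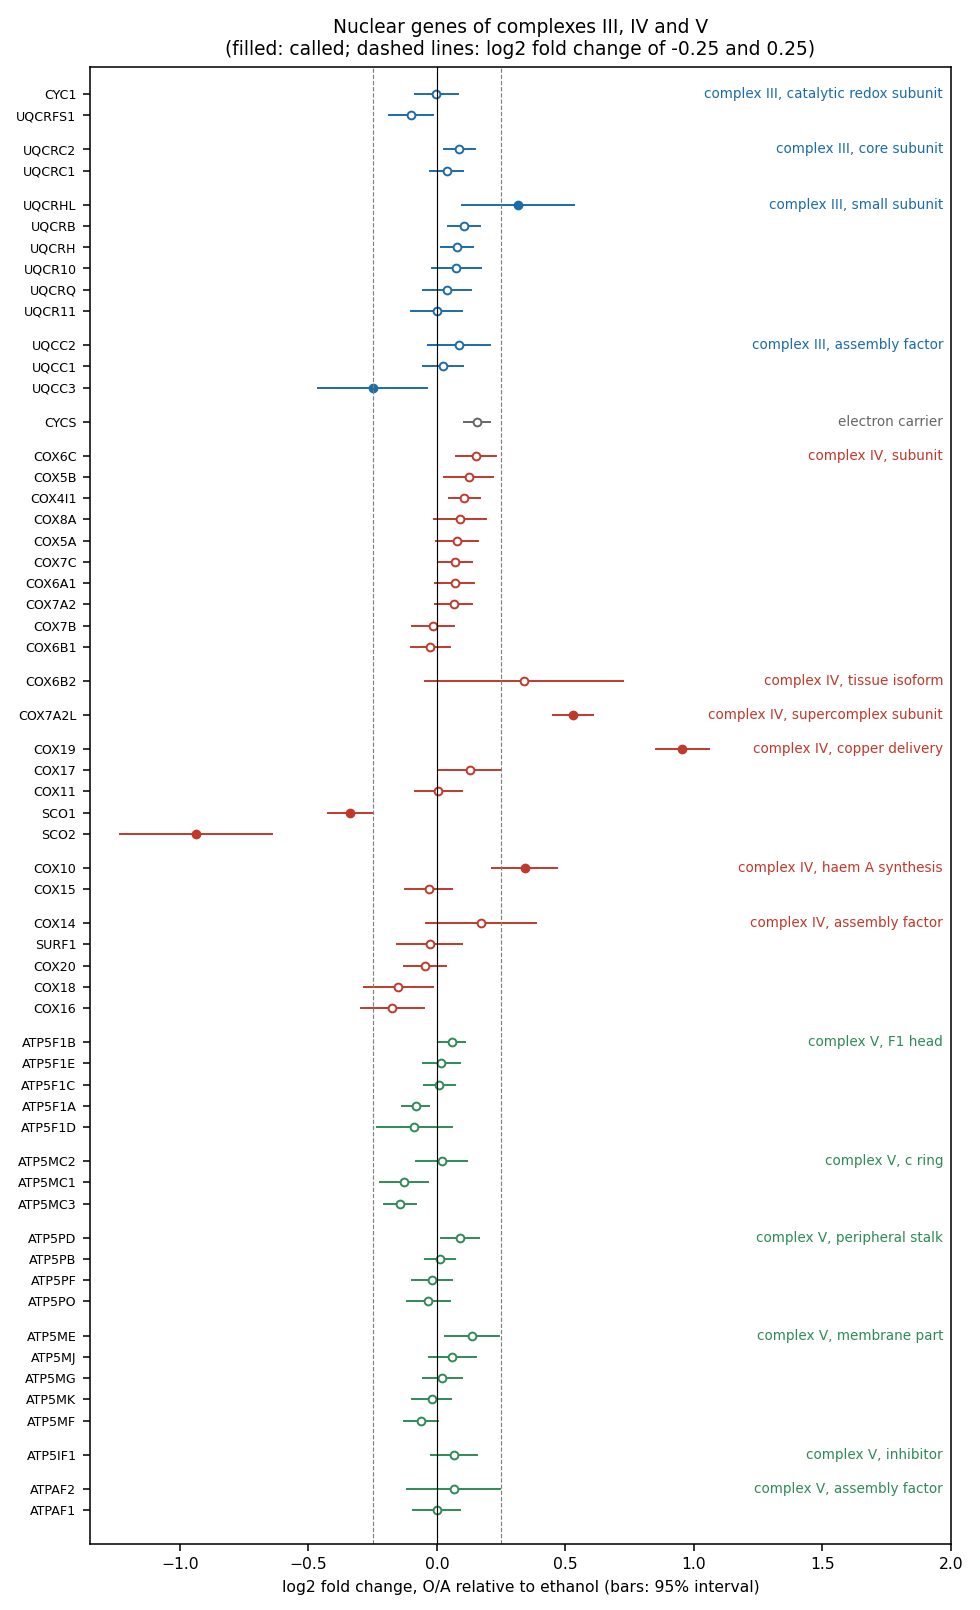
Log2 fold change of O/A over ethanol for the 58 tested members, 1 row per gene grouped by complex and role, with bars for the 95% interval of edgeR's quasi-likelihood fit and dashed lines at -0.25 and 0.25. Filled points are the 7 called members, from SCO2 at -0.94 to COX19 at 0.95, and none of the 20 rows of complex V is filled.

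By role, 2 of 40 subunits (the inhibitor ATP5IF1 counted with them) were called, COX7A2L and UQCRHL, and 5 of 17 assembly factors (29.4%), a share near that of all genes tested. Of the 5 genes of copper delivery 3 were called. The called assembly factors moved both ways, with COX19 and COX10 upregulated and SCO1, SCO2 and UQCC3 downregulated. Whether the share of calls differs between subunits and assembly factors was not tested.

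Within complex III, the genes of the electron path kept close to the ethanol level. CYC1, which encodes cytochrome c1, had a log2(FC) of -0.0017 with a 95% interval of -0.09 to 0.08, and UQCRFS1, the Rieske iron-sulphur protein, one of -0.10 with an adjusted p of 0.0399. The core proteins UQCRC1 and UQCRC2 had values of 0.04 and 0.09. The small subunits UQCR10, UQCR11, UQCRB, UQCRH and UQCRQ lay between -0.0004 for UQCR11 and 0.10 for UQCRB. Of these genes UQCRB, UQCRH, UQCRC2 and UQCRFS1 had an adjusted p of at most 0.05 with a log2(FC) inside the threshold. With upper-quartile scaling UQCRH and UQCRC2 no longer passed. The assembly factors UQCC1 and UQCC2 had values of 0.02 and 0.09 with adjusted p of 0.645 and 0.225.

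UQCRHL was the called subunit of complex III. It encodes a near copy of UQCRH, the acidic hinge protein that bridges cytochrome c1 and cytochrome c, and lies on chromosome 1 from 15807169 to 15809348 (minus strand, GRCh38), where exons fill all of its 2180 bases. Per-library values are given as CPM, the counts relative to the library total after scaling by the TMM method, and were 5.23, 6.62, 5.58 and 5.74 in ethanol replicates 1 to 4 and 6.73, 7.33, 7.04 and 7.70 in O/A. Each O/A library was above the highest ethanol library, by little in the case of O/A replicate 1. The log2(FC) was 0.32 (SE 0.109, adjusted p = 0.0122). The canonical transcript of UQCRHL, 276 bases long, aligned to that of UQCRH with 98.6% identity over its full length, so reads of the 2 genes can be confused and the value is uncertain. With the counts of both genes summed the log2(FC) was 0.09, inside the threshold, close to the 0.08 of UQCRH, which had 128 to 138 CPM in ethanol and 138 to 146 in O/A.

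UQCC3, an assembly factor that binds and stabilizes new cytochrome b, was called downregulated at the edge of the threshold. It lies on chromosome 11 from 62670273 to 62673686 (plus strand) and had 7.65, 7.01, 6.89 and 8.56 CPM in ethanol and 6.96, 5.93, 6.30 and 6.26 in O/A. The groups overlapped, since O/A replicate 1 lay above ethanol replicate 3. The log2(FC) was -0.2502 (SE 0.106, adjusted p = 0.0418), and the call was lost in 10 of 16 alternatives. UQCC3 shares 1995 bases with LBHD1 on the opposite strand, a gene that had a log2(FC) of -1.21 (adjusted p = 1.09e-12), and whether reads were counted by strand is not given in the sources used here, so the reads of the pair may not be separable. The part of LBHD1 in the value of UQCC3 was not tested.

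Complex IV held the widest spread among the members, from SCO2 at -0.94 to COX19 at 0.95. Both of these are assembly factors, and the subunit COX7A2L lay at 0.53. The symbol rule takes 12 tested assembly factors of complex IV, 3 of complex III and 2 of complex V, so the complexes are not covered alike. The 10 ubiquitous subunits, COX4I1, COX5A, COX5B, COX6A1, COX6B1, COX6C, COX7A2, COX7B, COX7C and COX8A, had a log2(FC) of -0.03 (COX6B1) to 0.15 (COX6C), with a median of 0.08, and none was called. COX4I1, COX5B and COX6C had an adjusted p of at most 0.05 at 0.11, 0.12 and 0.15. COX6C had 73.9, 74.0, 73.4 and 72.8 CPM in ethanol and 81.5, 78.5, 88.5 and 78.1 in O/A, groups that did not overlap, although the change of 1.11-fold was inside the threshold.

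COX7A2L, also known as SCAF1, was the called subunit of complex IV. It is a relative of the COX7A subunits that joins complexes III and IV in a supercomplex. The gene lies on chromosome 2 from 42333546 to 42425088 (minus strand), with no overlapping gene. Its level was 63.6, 60.2, 58.0 and 58.1 CPM in ethanol and 86.2, 83.5, 88.1 and 88.6 in O/A. The lowest O/A library was far above the highest ethanol library, and the log2(FC) was 0.53 (SE 0.0384, adjusted p = 4.16e-17), a 1.44-fold rise. The close relative COX7A2, the ubiquitous subunit, had 77.2 to 81.5 CPM in ethanol and 78.9 to 85.0 in O/A, with a log2(FC) of 0.07 and an adjusted p of 0.131.

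The tissue-restricted forms of complex IV were low or unseen in this line. COX4I2, COX7A1 and COX8C had 0 to 2 counts in each library, COX6A2 and COX7B2 had 0 counts in all 8 libraries, and ATP5MGL of complex V had 0 or 1, and a count of 0 allows up to 3 counts in a library by counting error alone. COX6B2, a form known from testis, was seen at 30 to 38 counts with ethanol and at 28 to 49 with O/A. Its CPM was 1.94, 2.13, 1.71 and 1.55 in ethanol and 1.61, 2.53, 2.59 and 2.47 in O/A, where O/A replicate 1 lay within the ethanol range and the other O/A libraries lay above it. The log2(FC) of COX6B2 was 0.34 with a 95% interval of -0.04 to 0.72 and an adjusted p of 0.132. With all libraries a change of this size was thus neither shown nor excluded. Without O/A replicate 1 it was called at 0.47 (adjusted p = 0.0362), so the outcome depends on this library.

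Copper reaches complex IV by a chain of small proteins in the intermembrane space, and 3 of the 5 genes of this chain were called, 1 up and 2 down, where 34.7% of all genes tested were called. So small a count shows nothing particular to the chain. COX17 carries copper to SCO1, SCO2 and COX11, the SCO proteins serve the copper site of the subunit COX2, COX11 serves that of COX1, and COX19 is a soluble partner needed for the same step. COX19 was upregulated, SCO1 and SCO2 were downregulated, and COX11 and COX17 were not called.

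COX19 showed the largest rise of the 58 members. The gene lies on chromosome 7 from 898778 to 975549 (minus strand) and had 23.9, 22.7, 22.6 and 22.6 CPM in ethanol and 43.7, 44.1, 46.7 and 43.2 in O/A. Every O/A library was well above every ethanol library, and the log2(FC) was 0.95 (SE 0.051, adjusted p = 3.41e-22), a 1.94-fold rise. ADAP1, which overlaps COX19 on the same strand, was seen at 38 to 72 counts with ethanol and at 43 to 78 with O/A, against 396 to 481 and 751 to 883 for COX19.

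SCO2 showed the largest fall. It lies on chromosome 22 from 50523568 to 50526461 (minus strand) and was seen at 98 to 157 counts with ethanol and at 49 to 79 with O/A. The CPM was 8.46, 6.11, 5.58 and 6.58 in ethanol and 4.54, 2.64, 3.12 and 3.74 in O/A. Replicate 1 was the highest library of both conditions, and the groups did not overlap. The log2(FC) was -0.94 (SE 0.146, adjusted p = 1.12e-06), and the call was kept when replicate 1 of either condition was left out, at -0.81 (ethanol) and -1.08 (O/A). TYMP on the same strand shares 710 bases with SCO2 and had a log2(FC) of 0.01, and NCAPH2 on the opposite strand had one of -0.02.

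SCO1, the paralogue of SCO2, was lower by less. It lies on chromosome 17 from 10672474 to 10698375 (minus strand) and had 62.4, 59.7, 57.9 and 59.1 CPM in ethanol and 47.6, 48.3, 45.4 and 47.8 in O/A. The ethanol libraries were all above the O/A libraries, and the log2(FC) was -0.34 (SE 0.0419, adjusted p = 1.11e-09), or 0.791 of the ethanol level. ADPRM, on the opposite strand over 782 bases of SCO1, had a log2(FC) of 0.44 (adjusted p = 0.00129), opposite in sign to that of SCO1. COX17 had 25.4, 23.6, 25.4 and 21.5 CPM in ethanol and 26.8, 26.5, 24.3 and 26.9 in O/A, groups that overlapped, with a log2(FC) of 0.13 and an adjusted p of 0.0664. COX11 had a log2(FC) of 0.0058 with an interval of -0.09 to 0.10.

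**Figure D2:**
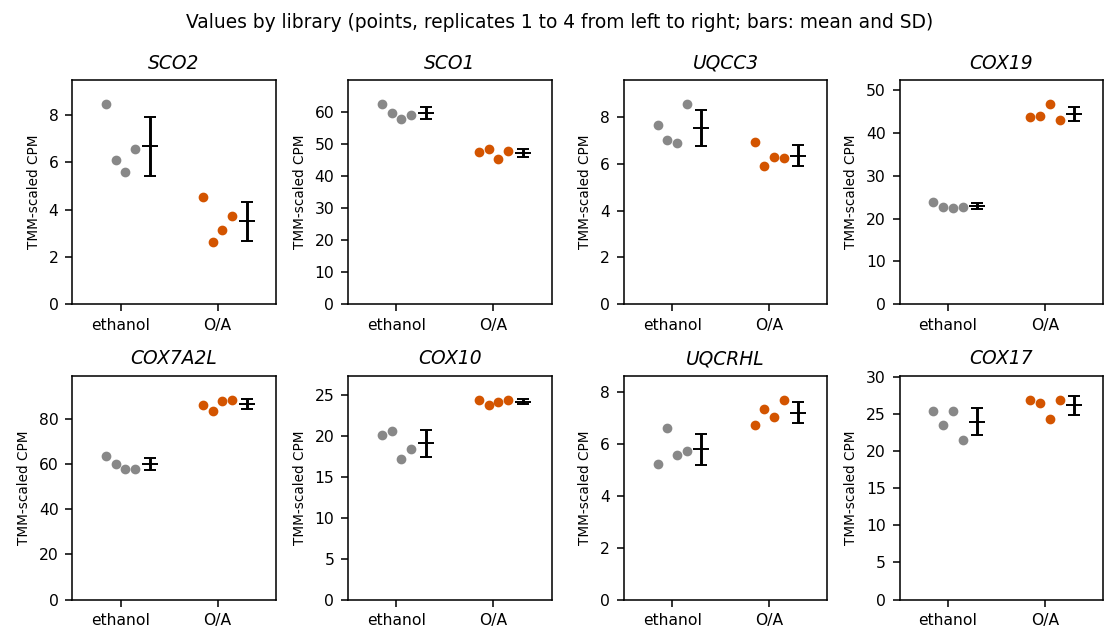
TMM-scaled CPM of the 7 called members and of COX17 in each library, with ethanol in grey, O/A in orange, points for replicates 1 to 4 from left to right and bars for the mean and SD of 4 libraries. The groups are apart for all but UQCC3 and COX17, and as a ratio the difference is largest for COX19, with 22.6 to 23.9 in ethanol and 43.2 to 46.7 in O/A.

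Haem A, the second cofactor of complex IV, is made by COX10, which adds a farnesyl tail to haem, and then by COX15. COX10 was upregulated and COX15 was not called. COX10 lies on chromosome 17 from 14069490 to 14231736 (plus strand) and had 20.1, 20.6, 17.1 and 18.4 CPM in ethanol and 24.4, 23.8, 24.1 and 24.3 in O/A. The O/A libraries lay within a narrow band above all ethanol libraries, and the log2(FC) was 0.34 (SE 0.0629, adjusted p = 7.04e-06), a 1.27-fold rise. On the log2(FPKM + 1) scale it was 0.23, inside the threshold. COX15 had 42.1 to 46.1 CPM in ethanol and 41.4 to 45.7 in O/A, with a log2(FC) of -0.03 and an interval of -0.13 to 0.06.

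Of the other assembly factors of complex IV none was called. COX14, which acts in the synthesis of COX1, had a log2(FC) of 0.17 with an adjusted p of 0.173. COX18, COX20 and COX16, which act in the insertion and maturation of COX2, had values of -0.15, -0.05 and -0.17, and that of COX16 had an adjusted p of 0.0141. The value of SURF1, an assembly factor for the COX1 module, was -0.03. For COX20, named pseudogenes held reads amounting to 7.23% of its own counts, the highest share among the 31 tested members with named pseudogenes, and COX6A1, at 1.16%, was the only other member above 1%.

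The promoters of the called members that could be matched are shown because these genes moved while most of their complex did not, and that of COX6A1 is shown as a ubiquitous subunit that was not called. Each run is 300 bases in GRCh38.p14 from RefSeq, 250 before and 50 after the gene's start, 5′ to 3′, at chr17:10697484-10697783 on the minus strand for SCO1, chr7:975500-975799 on the minus strand for COX19, chr17:14069254-14069553 on the plus strand for COX10, chr2:42361168-42361467 on the minus strand for COX7A2L and chr12:120437863-120438162 on the plus strand for COX6A1. Capitals mark matches on either strand to the NRF1 motif GCGCATGCG, the ETS/GABPA motif CCGGAAG or the ATF4/CEBP motif TGATGNAA. For SCO1 and COX7A2L the RefSeq start lies inside the longer gene of the authors' table, and for COX10 and COX6A1 it lies inside by a few bases. That longer gene begins at 10698375 for SCO1 and, much farther from the window, at 42425088 for COX7A2L. The run of COX7A2L therefore covers only 1 start inside the gene.
SCO1: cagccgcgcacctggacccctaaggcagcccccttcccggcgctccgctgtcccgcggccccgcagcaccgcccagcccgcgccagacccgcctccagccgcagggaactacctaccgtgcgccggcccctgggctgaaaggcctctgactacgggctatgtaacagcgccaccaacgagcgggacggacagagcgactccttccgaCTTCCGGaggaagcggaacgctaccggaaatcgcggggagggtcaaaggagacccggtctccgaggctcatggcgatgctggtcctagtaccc
COX19: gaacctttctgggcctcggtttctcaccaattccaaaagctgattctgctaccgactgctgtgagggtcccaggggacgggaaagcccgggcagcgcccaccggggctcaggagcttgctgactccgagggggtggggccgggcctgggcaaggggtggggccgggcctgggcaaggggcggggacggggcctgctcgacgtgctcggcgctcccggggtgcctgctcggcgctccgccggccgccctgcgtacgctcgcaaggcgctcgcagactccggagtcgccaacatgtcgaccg
COX10: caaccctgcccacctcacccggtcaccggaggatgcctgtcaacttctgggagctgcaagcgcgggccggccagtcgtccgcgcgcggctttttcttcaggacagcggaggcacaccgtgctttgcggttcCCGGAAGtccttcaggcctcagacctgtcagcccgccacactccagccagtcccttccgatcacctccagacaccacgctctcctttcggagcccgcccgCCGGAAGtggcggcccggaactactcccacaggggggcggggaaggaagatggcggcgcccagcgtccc
COX7A2L: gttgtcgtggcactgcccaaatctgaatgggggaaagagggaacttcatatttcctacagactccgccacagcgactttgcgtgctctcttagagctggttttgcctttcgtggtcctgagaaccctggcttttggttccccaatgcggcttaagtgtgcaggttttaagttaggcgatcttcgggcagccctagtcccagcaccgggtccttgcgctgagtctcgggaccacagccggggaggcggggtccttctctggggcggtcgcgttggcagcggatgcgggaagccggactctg
COX6A1: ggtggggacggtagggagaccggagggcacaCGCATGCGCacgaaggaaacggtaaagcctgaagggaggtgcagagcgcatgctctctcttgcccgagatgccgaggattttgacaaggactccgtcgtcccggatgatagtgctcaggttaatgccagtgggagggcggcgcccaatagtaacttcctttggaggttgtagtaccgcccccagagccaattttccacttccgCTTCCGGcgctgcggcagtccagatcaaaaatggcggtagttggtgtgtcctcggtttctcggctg
COX10 held 2 ETS/GABPA matches and SCO1 held 1, COX6A1 held 1 NRF1 and 1 ETS/GABPA match, and COX19 and COX7A2L held none of the 3 motifs. The set of 27305 RefSeq promoters held one for 50 members, 47 of them tested, and UQCRHL, UQCC3 and SCO2 were not among them.

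The motif shares are given as a description, with no test. NRF1, GABPA and YY1 are factors known to drive respiratory chain genes, and their motifs had a higher share in the members' promoters than in those of all tested genes. NRF1 sites were found in 14.9% of the 47 promoters of tested members, 3.69% of the 10700 promoters of tested genes and 2.10% of all promoters. ETS/GABPA sites were found in 38.3%, 19.6% and 10.7%, and YY1 sites (AAGATGGC) in 14.9%, 5.51% and 3.03%. SP1 sites (GGGCGG) were found in 63.8% of the members' promoters and 69.4% of those of tested genes, and HIF sites (ACGTG) in 34.0% and 26.4%. The ATF4/CEBP motif was found in 1 of 47, that of ATPAF1, or 2.13%, where tested genes had it in 1.72%. Each match is only a run of letters in the window, and overlapping motifs were counted apart.

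CYCS, the soluble carrier between complexes III and IV, was among the members with many reads and had a small difference. It lies on chromosome 7 from 25118656 to 25125260 (minus strand) and had 494, 493, 495 and 485 CPM in ethanol and 551, 545, 550 and 546 in O/A. The groups did not overlap, and the log2(FC) of 0.16 (SE 0.0244, adjusted p = 2.96e-07) stayed inside the threshold, a 1.11-fold difference.

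No member of complex V was called, and 20 of 20 had an interval inside -0.25 to 0.25. The log2(FC) ranged from -0.14 for ATP5MC3 to 0.14 for ATP5ME, with a median of 0.01. In the catalytic F1 head ATP5F1B, the beta subunit that makes ATP, had 579, 570, 568 and 550 CPM in ethanol and 605, 586, 578 and 590 in O/A, with a log2(FC) of 0.06. Its partner ATP5F1A, the alpha subunit, had 422, 420, 422 and 401 CPM in ethanol and 401, 384, 391 and 396 in O/A, with a log2(FC) of -0.08. Both passed an adjusted p of 0.05 (0.0491 and 0.00558) with opposite signs, and both pairs of groups overlapped. The other F1 subunits ATP5F1C, ATP5F1D and ATP5F1E had values of 0.0093, -0.09 and 0.02.

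The remaining parts of complex V were as close to ethanol. The peripheral stalk genes ATP5PB, ATP5PD, ATP5PF and ATP5PO ranged from -0.03 (ATP5PO) to 0.09 (ATP5PD). In the membrane part ATP5ME had 31.1, 38.0, 35.2 and 34.6 CPM in ethanol and 38.5, 38.2, 38.9 and 37.0 in O/A, where ethanol replicate 2 lay within the O/A range, and its log2(FC) was 0.14 (SE 0.0516, adjusted p = 0.0221). The log2(FC) of ATP5MF, ATP5MG, ATP5MJ and ATP5MK lay between -0.06 and 0.06. ATP5IF1, the protein that stops the enzyme from running backwards when the gradient is lost, had 58.5 to 67.7 CPM in ethanol and 60.1 to 67.4 in O/A, with a log2(FC) of 0.07 and an adjusted p of 0.216. The assembly factors ATPAF1 and ATPAF2 had values of -0.0007 and 0.07.

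The c ring, where oligomycin binds, is built from 1 mature protein that ATP5MC1, ATP5MC2 and ATP5MC3 all encode. ATP5MC3 had 145, 144, 143 and 139 CPM in ethanol and 133, 131, 130 and 121 in O/A, groups that did not overlap, with a log2(FC) of -0.14 (SE 0.0315, adjusted p = 0.000108). ATP5MC1 had 43.96, 47.0, 48.2 and 43.0 CPM in ethanol and 41.2, 41.2, 40.9 and 43.2 in O/A, which overlapped through O/A replicate 4, with a log2(FC) of -0.13 and an adjusted p of 0.0172. ATP5MC2 had 36.9 to 39.4 and 36.1 to 40.3 CPM and a log2(FC) of 0.02. All 3 values were inside the threshold.

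The share of each gene in the summed FPKM of the 3 was compared by an exact two-sided permutation test of 4 libraries against 4, adjusted over the 3 shares. The share of ATP5MC1 was 27.3% ± 0.992 (SD, n = 4) in ethanol and 27.0% ± 1.00 in O/A (exact p = 0.8). That of ATP5MC2 was 15.2% ± 0.388 and 16.7% ± 0.892 (exact p = 0.0286, the smallest this design allows, adjusted p = 0.0857), higher in 4 of 4 O/A libraries than in any ethanol library. That of ATP5MC3 was 57.5% ± 0.664 and 56.3% ± 1.69 (exact p = 0.229, adjusted p = 0.343). None passed after adjustment, but 1 share that separates fully cannot pass alone in this design, since 0.0857 is then the smallest adjusted p. The order of the 3 genes depends on the length used, since per length of the canonical transcript the ethanol levels were 71.5 for ATP5MC1, 60.9 for ATP5MC2 and 55.9 for ATP5MC3 (FPKM on that length).

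**Figure D3:**
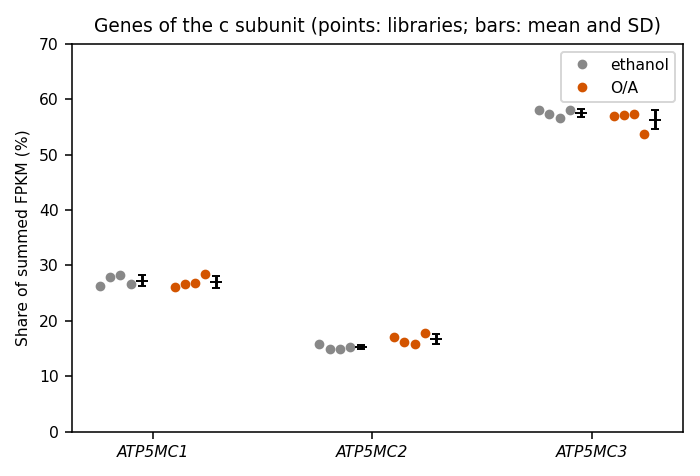
Share of ATP5MC1, ATP5MC2 and ATP5MC3 in their summed FPKM (percent), 1 point per library, ethanol in grey and O/A in orange, with bars for the mean and SD of 4 libraries. ATP5MC3 holds 53.8 to 58.0% in every library, and the mean share of ATP5MC2 is 15.2% in ethanol and 16.7% in O/A, a difference that did not pass after adjustment.

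The median level was higher among subunits than among assembly factors. Levels between genes are given here as FPKM recomputed on the length of the canonical transcript, a length chosen after the values were seen, because the exonic length behind the authors' FPKM adds up all transcripts of a gene and is 4816 bases for COX4I1 where the canonical transcript has 763. In ethanol the median was 72.4 over the 40 subunits, from 1.19 for COX6B2 to 327 for ATP5F1B, and 11.1 over the 17 assembly factors, from 2.81 for COX18 to 57.0 for COX17. The highest member was UQCRH in complex III (253), COX4I1 in complex IV (249) and ATP5F1B in complex V, and the lowest tested ones were UQCC3 (3.96), COX6B2 and ATPAF2 (6.12). UQCRH and COX4I1 did not differ beyond their spread (SD 7.81 and 10.7, n = 4). The ranking follows the length of the transcript chosen. UQCRB, with a canonical transcript of 8459 bases, stood at 15.2, and UQCRH, with one of 537 bases, at 253. Their mean CPM in ethanol was 126.5 and 133.9. The 7 called members lay between 3.96 for UQCC3 and 26.7 for COX7A2L, so every one was below the median subunit.

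**Figure D4:**
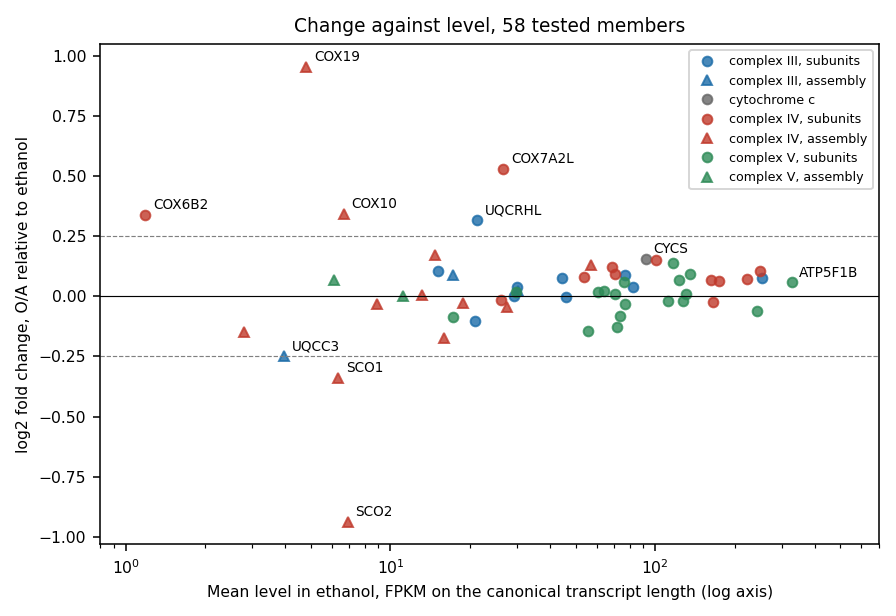
Log2 fold change of O/A over ethanol (vertical axis) against the mean level in ethanol (FPKM on the canonical transcript length, log axis) for the 58 tested members, with circles for subunits, triangles for assembly factors and colours for the complexes. The members outside the dashed lines at -0.25 and 0.25 all sit at levels of 26.7 or less, and the members above 100 lie between -0.06 and 0.15.

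The core subunits made inside the mitochondrion were set beside their nuclear partners. MT-CO2, the subunit that receives copper from the SCO proteins, had 5290, 5540, 4770 and 5894 CPM in ethanol and 4158, 4381, 4778 and 4666 in O/A, where O/A replicate 3 lay just above ethanol replicate 3. Its log2(FC) was -0.26 (SE 0.0766, adjusted p = 0.0282), a call that was lost in 7 of 16 alternatives. The values of MT-CO1, MT-CO3 and MT-CYB were -0.17, 0.02 and -0.09, and those of MT-ATP6 and MT-ATP8 of complex V were 0.14 and 0.18, with adjusted p of 0.0907 to 0.885. These messages, like all others here, were measured after selection on poly(A).

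Assembly factors of the 3 complexes that the symbol rule does not take were also examined, and the list for complex IV includes its subunit NDUFA4. For complex III, BCS1L, which inserts the Rieske protein, was downregulated at -0.26 (adjusted p = 3.73e-06, call lost in 3 of 16 alternatives), and LYRM7 and TTC19 were not called. Members of the UQCC family listed under older symbols gave -0.26 for C16orf91 (UQCC4, adjusted p = 0.04, call lost in 7 of 16), 0.23 for SMIM4 (UQCC5) and -0.21 for C12orf73 (UQCC6), the last 2 with adjusted p of 0.0867 and 0.0578. For complex IV, 5 of 23 further genes (21.7%) were called, below the 34.7% of all genes tested, and 4 of these were downregulated, where the share over all genes was 18.9%. TMEM177, which stabilizes COX20 and new COX2, had 10.7, 10.8, 10.2 and 10.8 CPM in ethanol and 5.75, 6.14, 5.93 and 5.00 in O/A, with groups far apart and a log2(FC) of -0.89 (SE 0.0974, adjusted p = 3.30e-11). COA7, a haem-binding assembly factor, had 63.0, 61.5, 63.1 and 57.0 CPM in ethanol and 36.9, 33.8, 29.6 and 33.1 in O/A, again with groups far apart and a log2(FC) of -0.88 (SE 0.0504, adjusted p = 5.50e-19). TIMM21, which hands imported subunits to the complex, had a log2(FC) of -0.60 (adjusted p = 4.68e-13) and TACO1, the translational activator of COX1, one of -0.30 (adjusted p = 0.0211, call lost in 4 of 16). CMC2, named after its value was seen, was upregulated at 0.254, a call lost in 8 of 16 alternatives.

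The 3 further assembly factors of complex V were called, 2 up and 1 down, where 34.7% of all genes tested were called, and both upward calls depended on the processing. TMEM70, which helps to build the c ring, had 29.7, 30.8, 29.8 and 29.0 CPM in ethanol and 23.9, 24.3, 21.8 and 21.4 in O/A, without overlap and with a log2(FC) of -0.38 (SE 0.0567, adjusted p = 8.44e-08). TMEM242, which acts in the same step, was upregulated at 0.2505 (adjusted p = 0.000177, call lost in 8 of 16 alternatives). FMC1, a partner of ATPAF2, was upregulated at 0.56 from 1.29, 1.18, 1.20 and 0.94 CPM in ethanol to 1.67, 1.62, 1.54 and 1.95 in O/A (adjusted p = 0.0310, call lost in 4 of 16).

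Neither drug blocks complexes I and II. Of the subunits of complex I 5.41% were called, and of the subunits and assembly factors of complex II 12.5%, against 34.7% of all genes tested. The complex I list holds no assembly factors, and among the subunits of complexes III, IV and V 5% were called. Of 37 nuclear subunits of complex I, which feeds electrons from NADH, 2 were called, NDUFV3 at -0.40 (adjusted p = 1.42e-08) and NDUFA11 at 0.26 (adjusted p = 0.000733, call lost in 5 of 16 alternatives), with a median of 0.05 over the list. Of 8 genes of complex II, which feeds electrons from succinate, SDHAF4, a chaperone of the subunit SDHA, was called at 0.55 (adjusted p = 0.000294), and the median was 0.0008.

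**Figure D5:**
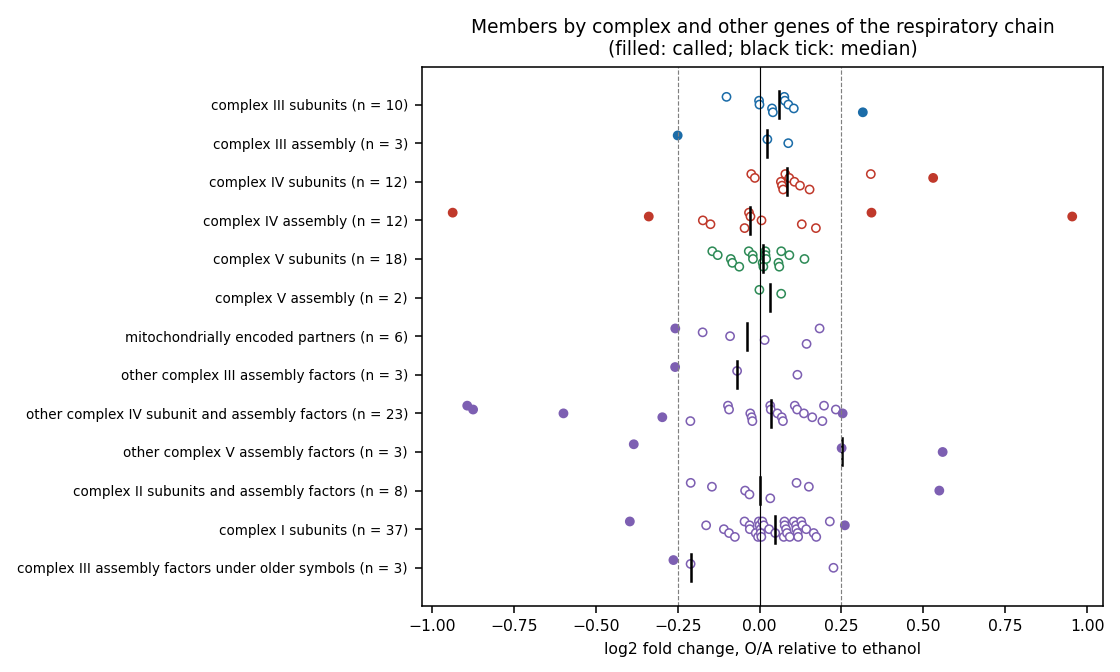
Log2 fold change of O/A over ethanol for subunits and assembly factors of complexes III, IV and V and for further genes of the respiratory chain, 1 point per gene, filled where called, with a black tick at each median and dashed lines at -0.25 and 0.25. Most points of the subunit rows lie near 0. The points below -0.5 are SCO2, TMEM177, COA7 and TIMM21, all assembly factors of complex IV. The points above 0.5 are COX19 and the subunit COX7A2L of complex IV, FMC1 of complex V and SDHAF4 of complex II.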

How the data were processed

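The series holds 8 mRNA libraries of N/TERT-1 cells, 4 given ethanol and 4 given O/A, grouped by their sample titles. The authors aligned paired-end reads of poly(A) RNA to GRCh38.p13 with HISAT2 2.0.1 and counted them on Ensembl genes with HTSeq 0.6.1. The strand setting and the Ensembl release are not given in the sources used here. The deposited counts are not normalized. The authors made each FPKM value from the count, the gene's exonic length and the library total, and recomputed values were within 0.005. A deposited table of the authors' own DESeq2 comparison (fold changes and p-values) was not used.

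Counts were fitted with edgeR 4.0.16 in R 4.3.3 (TMM scaling, robust quasi-likelihood test, Benjamini-Hochberg adjustment over the 14893 of 61806 genes in which 4 or more libraries reached 10 counts). Shares of the c subunit genes were compared by exact permutation with scipy 1.17.1. Replicates were labelled biological, and p-values measure the spread between these libraries. Alternatives were DESeq2 1.42.0, median-ratio and upper-quartile scaling, no filter, limma 3.58.1 on log2(FPKM + 0.1) and log2(FPKM + 1), other fold change thresholds, the replicate number as a block, pseudogene reads added to the parent gene, and each library left out. The canonical transcript length and the sum of UQCRH and UQCRHL were added after the data were seen. The edgeR and DESeq2 fits and limma on log2(FPKM + 0.1) were also run on simulated counts. The simulation changed a far smaller share of genes than was called in these data. The permutation test and limma on log2(FPKM + 1) were not simulated. All 64 members were found in GENCODE v44 with the same position, and coordinates were taken from the deposited table.

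The members and gene lists were chosen with earlier results of these data known. Called members, the extremes of a complex without calls, and up to 4 called genes of each further list are named with their values.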

Additional observations from a re-analysis of the deposited data

Results flagged for a closer look

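Dixon's test was applied to the CPM of the members and to the shares of the c subunit genes. Values of 1 library that lay far from the other 3 of its condition were seen in 10 of 122 groups of 4 libraries. By chance about 1 in 20 groups, or 6.1, would be flagged. COX19 had 23.9 CPM in ethanol replicate 1 against 22.6 to 22.7 in the others, and COX6B2 stood at 1.61 in O/A replicate 1 where the others were at 2.47 to 2.59. COX17 stood at 24.3 in O/A replicate 3 (26.5 to 26.9 in the others), and ATP5IF1 had 67.7 in ethanol replicate 2 against 58.5 to 59.2.

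Ethanol replicate 4 was the lowest library for CYCS (484.5 against 493 to 495), COX6B1 (76.4 against 80.2 to 80.8) and ATP5F1A (400.5 against 420 to 422). O/A replicate 4 was the highest for UQCRFS1 (62.1 against 57.6 to 58.1) and ATP5MC1 (43.2 against 40.9 to 41.2). In the same library the share of ATP5MC3 among the c subunit genes was the lowest, at 53.8% against 56.9 to 57.3%. The part of these libraries in the results was not tested beyond leaving each out, and of the members only COX6B2 gained a call, without O/A replicate 1, and only UQCC3 lost one.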

How the results depend on the processing

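Of the 7 members called, 6 were also called by DESeq2, with median-ratio scaling and with no filter on low counts, each time without UQCC3, and the same 7 with upper-quartile scaling, on log2(FPKM + 0.1) and with pseudogene reads added. On log2(FPKM + 1) 4 were called, without COX10, UQCC3 and UQCRHL. With no fold change threshold 22 were called, and with one above 0.5 the count was 3. Leaving out 1 library gave 6 to 8. For complex III the count of 2 became 1 with DESeq2, with median-ratio scaling, with no filter and with the replicate block, 0 on log2(FPKM + 1), 6 with no threshold, 0 above 0.5 and 1 to 2 with 1 library left out. For complex IV it became 9 with no threshold and 3 above 0.5, and for complex V 6 with no threshold. With the summed pair UQCRH and UQCRHL, 6 were called. With the threshold kept at 0.25, the calls of 4 members held in the 16 alternatives run for each, with a log2(FC) range for COX19 (0.75 to 0.97), COX7A2L (0.45 to 0.56), SCO2 (-1.08 to -0.76) and SCO1 (-0.38 to -0.32).

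Libraries with the same replicate number did not deviate together (correlations of 0.04, -0.002, -0.02 and 0.07), so the numbers were not taken as pairs. With the replicate block 6 members were called, without UQCC3, and 5160 genes in all against 5165.

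The split over all genes was 2350 up and 2815 down with TMM scaling, 2065 and 3146 with upper-quartile scaling, and 1945 and 3179 with limma on log2(FPKM + 0.1), which changes the test, the pseudocount and the scaling together, and the members' median log2(FC) was 0.03, -0.0021 and -0.01. Small values changed sign. With upper-quartile scaling, on log2(FPKM + 0.1) and on log2(FPKM + 1), in this order, the log2(FC) was -0.0092, -0.0206 and -0.019 for UQCC1, -0.0131, -0.0261 and -0.0236 for ATP5MG, -0.015, -0.0279 and -0.0255 for ATP5MC2, -0.0153, -0.0278 and -0.0267 for ATP5F1E, -0.0214, -0.034 and -0.0335 for ATP5PB, -0.0236, -0.036 and -0.0355 for ATP5F1C, -0.0271, -0.0406 and -0.0351 for COX11 and -0.0175, -0.0278 and -0.0278 for MT-CO3. On the FPKM scales alone it was -0.0048 and -0.0047 for UQCRQ and -0.0079 and -0.0077 for UQCRC1. With DESeq2 and median-ratio scaling it was 0.0057 and 0.0056 for CYC1, 0.0065 and 0.0066 for ATPAF1 and 0.0064 and 0.0069 for UQCR11. With 1 library left out it ranged from -0.0055 to 0.0512 for UQCC1, -0.0036 to 0.0371 for ATP5MG, -0.0061 to 0.0479 for ATP5MC2, -0.0019 to 0.0572 for ATP5F1E, -0.0111 to 0.0315 for ATP5PB, -0.011 to 0.0252 for COX11, -0.0233 to 0.028 for CYC1, -0.0276 to 0.0214 for ATPAF1, -0.0314 to 0.0335 for UQCR11, -0.0347 to 0.0174 for COX7B, -0.0349 to 0.0104 for ATP5MK, -0.0446 to 0.0043 for COX6B1 and -0.0371 to 0.0601 for MT-CO3. The difference in the share of ATP5MC1 ranged from -0.734 to 0.099 percentage points. The cause of these sign changes was not tested.

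Depth limits UQCC3, UQCRHL, SCO2 and COX6B2, with 28 to 182 counts per library. Reads of overlapping or near-identical genes cannot be separated here, which touches UQCC3, SCO1, SCO2, COX19 and UQCRHL. The comparison covers 1 cell line and 1 time.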
